A study of Mus musculus with 24 samples.

Results

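The 45 genes described here encode proteins of mitosis and the mitotic spindle, chosen by symbol as a fixed list. All 45 were found once in both gene count tables, out of 27179 genes listed. Cyclin B and CDK1 drive entry into mitosis. Kinesins and their partners build the spindle, the spindle checkpoint holds the cell until each kinetochore is attached, and the anaphase-promoting complex then starts chromosome separation and mitotic exit. Most of these genes are transcribed late in the cell cycle, so their mRNA is scarce in resting lymphocytes and abundant in dividing ones.

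The libraries were made from lymph node B cells of C57BL/6 mice, aged 6 to 20 weeks per the study's methods, and asked what loss of the ETS transcription factors PU.1 (encoded by Spi1) and SpiB does to mature B cells. The control genotype was Cd23T/+ and that of PU.1 cKO was Spi1fl/fl Cd23T/+. The genotype Spi1fl/fl Cd23+/+ Spib-/- is called SpiB KO. The double mutant, Spi1fl/fl Cd23T/+ Spib-/-, is called PU.1 SpiB DKO. Cells of each genotype were naive, cultured for 48 h with CD40L (50 ng per ml) and IL-4 (10 ng per ml), which mimics T cell help, or cultured for 48 h with LPS (20 µg per ml) and IL-4 (10 ng per ml), a Toll-like receptor stimulus. Each of the 12 groups had 2 biological replicates, giving 24 libraries. The Cre transgene is driven by Cd23 regulatory sequences and acts from the transitional B cell stage, the SpiB KO mice carried no Cre, and Spi1 was floxed in every mutant but not in the control. The study describes incomplete excision of the floxed Spi1 exon in naive PU.1 SpiB DKO cells and efficient excision in both kinds of activated culture. For sequencing, naive and activated B cells were sorted as CD3- B220+ CD138-, a gate that leaves out T cells and plasma cells.

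Total counts per library ran from 14231188 to 18194629 in naive cells, from 9598674 to 61640683 with CD40L + IL-4 and from 22757630 to 73658850 with LPS + IL-4. A gene was tested in a stage when it reached 0.5 CPM (counts scaled to library size) in at least 2 libraries of that stage. Genes were called differentially expressed (DE) at a Benjamini-Hochberg adjusted p below 0.15 in edgeR's quasi-likelihood test with a change of more than 1.5-fold. Standard errors (SE) of log2 fold changes are approximate. They were derived from the same test, as the size of the log2 change divided by the square root of its F statistic. An exact permutation test of 2 libraries against 2 cannot give a p below 0.333, so it was not used for single genes. In these bulk samples, fewer dividing cells and less RNA per cell cannot be told apart. Division was assayed apart from the libraries, by dye dilution. After 48 h with CD40L + IL-4 the study describes modestly more division in cells lacking PU.1, with or without SpiB. Later in that culture it describes similar division in every genotype. The part of division in the genotype changes of single members was not tested. Between stages, the cultures included, the stage cannot be told apart from any difference in library preparation or sequencing between the sets of libraries. The B cell markers Cd79a, Cd79b, Ms4a1, Pax5, Cd22, Blnk and Ebf1 summed to between 7049 and 9688 CPM in the naive libraries. Mean Spib was 14.2-fold to 45.4-fold lower than control in the 6 groups of Spib-/- genotype. Mean Spi1 was lower in PU.1 cKO at each stage, by 2.92-fold in naive cells, 2.37-fold with CD40L + IL-4 and 1.55-fold with LPS + IL-4. In PU.1 SpiB DKO, Spi1 was 1.55-fold lower in naive cells and 3.32-fold lower with CD40L + IL-4. With LPS + IL-4 it was 61.4 CPM in the libraries labelled PU.1 SpiB DKO and 66.4 CPM in control, and did not pass the test (adjusted p = 0.448). Gene totals also count exons that the floxed allele leaves, so they are an incomplete check of excision. Among naive libraries, control replicate 2 lay farthest from the stage's median profile, with a root mean square distance of 0.510 on the log2 CPM scale, against 0.277 to 0.446 in the other naive libraries.

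Activation in control B cells set the range of these genes. In naive control cells the 45 genes together took 0.0421% and 0.0375% of all counts, and 38 of them stayed under 10 CPM in each of the 8 naive libraries. Their summed level was 484 and 396 CPM in the naive control libraries, 6564 and 5225 CPM with CD40L + IL-4, and 6337 and 7551 CPM with LPS + IL-4 (all on a scale normalised over the 24 libraries). With CD40L + IL-4, 43 members were DE higher than in naive cells and 1 was lower, while 25.4% of the 13684 genes tested were DE higher and 23.4% lower. With LPS + IL-4, 42 were higher and 2 lower, against 32.6% and 31.3% of all genes. The median log2 change of the members was 6.02 with CD40L + IL-4 and 6.15 with LPS + IL-4 (65.1-fold and 71.1-fold), while the medians of all genes tested were 0 and 0.01.

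**Figure D1:**
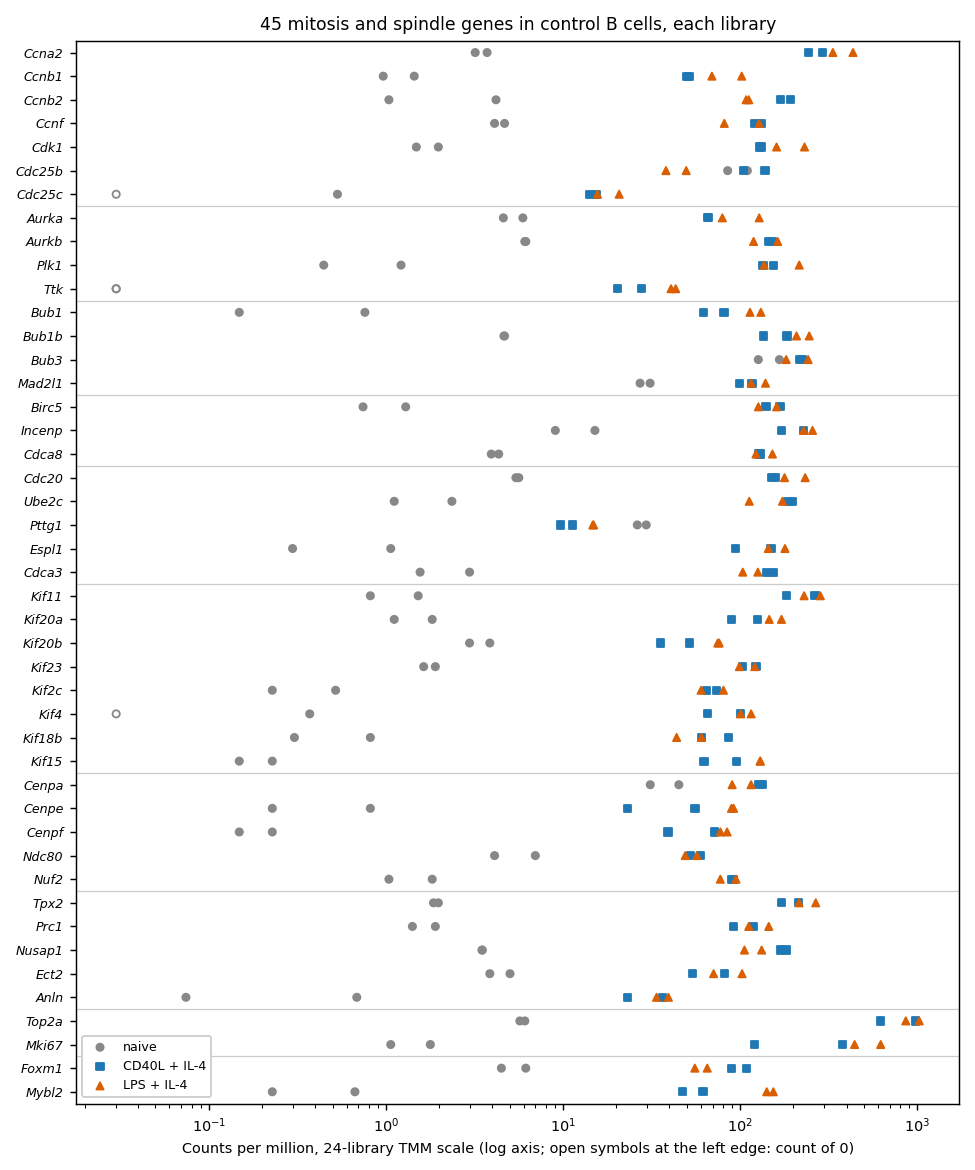
Level of each of the 45 genes in the 6 control libraries, in CPM on a log axis, with 1 symbol per library, open symbols at the left edge for a count of 0 and lines between functional groups. Naive symbols lie far to the left of the cultured ones for most genes, and Bub3, Cdc25b, Cenpa, Mad2l1 and Pttg1 are the members over 20 CPM in both naive libraries.

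The motors and kinases of the dividing cell rose from near zero. Kif11, the kinesin that pushes spindle poles apart, measured 1.52 and 0.818 CPM in the naive libraries, 265 and 183 CPM with CD40L + IL-4 and 230 and 284 CPM with LPS + IL-4. Its naive mean was 0.523% of that with CD40L + IL-4, and 28 of the 45 members lay under 2% in the same way. The mitotic kinase gene Cdk1 went from 1.98 and 1.49 CPM to 129 and 133 CPM with CD40L + IL-4 and 161 and 231 CPM with LPS + IL-4. The cultured and naive libraries of both genes were fully separated. Plk1, a kinase of mitotic entry and spindle assembly, rose by 7.44 (SE 0.34) and 7.73 (SE 0.34) on the log2 scale. Ccnb1, encoding cyclin B1, rose by 5.39 (SE 0.29) and 6.15 (SE 0.29). Cdc20, which activates the anaphase-promoting complex, rose by 4.81 (SE 0.22) and 5.22 (SE 0.22). The largest adjusted p among these 6 changes was 1.1e-11 (edgeR's quasi-likelihood test).

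Ttk, the kinase that starts checkpoint signalling, had no count in either naive control library. It had 527 counts in the CD40L + IL-4 control libraries and 3422 in the LPS + IL-4 ones, so it was at least 217-fold and at least 377-fold higher, against a floor of 3 counts over the naive group. Setting Ttk at these bounds left both medians as they were. Kif4, a chromosome-bound kinesin, was at 0 and 0.372 CPM in naive control cells and at 100 and 65.4 CPM with CD40L + IL-4. With LPS + IL-4 its libraries were at 101 and 116 CPM. Top2a, the topoisomerase that untangles sister chromatids, reached the highest counts of the group, from 5.71 and 6.10 CPM in naive cells to 984 and 620 CPM with CD40L + IL-4 and 864 and 1029 CPM with LPS + IL-4. Its rise was 7.08 (SE 0.30) and 7.32 (SE 0.31) on the log2 scale.

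Other members of each role were at these levels in control cells, given for naive, CD40L + IL-4 and LPS + IL-4 libraries in turn. Ccnb1 was at 1.45 and 0.967 CPM, 49.8 and 51.6 CPM and 69.5 and 102 CPM, and Ccna2, encoding cyclin A2, was at 3.73 and 3.20 CPM, 292 and 244 CPM and 335 and 435 CPM. The kinase gene Plk1 was at 1.22 and 0.446 CPM, 155 and 135 CPM and 137 and 216 CPM. Naive and cultured libraries were fully separated for these 3 genes, as they were for the Aurora kinases, with Aurka at 5.94 and 4.61 CPM, 66.7 and 65.7 CPM and 79.5 and 128 CPM and Aurkb at 6.09 and 6.17 CPM, 153 and 145 CPM and 119 and 163 CPM. Bub1, a checkpoint kinase, was at 0.762 and 0.149 CPM, 81.3 and 62.3 CPM and 114 and 131 CPM. Birc5, encoding the survivin subunit of the passenger complex, was at 1.29 and 0.744 CPM, 140 and 168 CPM and 127 and 161 CPM. Cdc20 was at 5.64 and 5.43 CPM, 159 and 151 CPM and 178 and 234 CPM and its partner Ube2c at 2.36 and 1.12 CPM, 198 and 186 CPM and 113 and 174 CPM. All of these rose in both cultures, by 12.5-fold or more. Mki67, widely used as a marker of dividing cells, spread more between replicates, at 1.07 and 1.78 CPM, 380 and 120 CPM and 623 and 444 CPM.

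A few members broke with this pattern. Pttg1 encodes securin, the inhibitor of the protease that cuts cohesin. Its naive control libraries were at 29.6 and 26.3 CPM, its CD40L + IL-4 libraries at 9.74 and 11.3 CPM and its LPS + IL-4 libraries at 14.8 and 14.9 CPM. It was the 1 member that fell in both cultures, by 1.41 (SE 0.16, adjusted p = 5.49e-07) and 0.91 (SE 0.15, adjusted p = 2.58e-05) on the log2 scale. Espl1, encoding the separase that securin holds, rose by 7.48 (SE 0.30) and 7.89 (SE 0.30) in the same libraries.

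Cdc25b encodes a phosphatase that activates CDK1. It measured 110 and 85.2 CPM in naive control cells, 138 and 104 CPM with CD40L + IL-4 and 38.2 and 49.7 CPM with LPS + IL-4. Naive and CD40L + IL-4 libraries overlapped (log2 change 0.32, SE 0.16, adjusted p = 0.111, under 1.5-fold), whereas both LPS + IL-4 libraries lay below them (log2 change -1.15, SE 0.16, adjusted p = 4.12e-06). Its relative Cdc25c rose by 5.79 (SE 0.45) with CD40L + IL-4. Bub3, a checkpoint protein that also binds chromatin between divisions, was already at 167 and 127 CPM in naive cells, with 226 and 217 CPM and 182 and 243 CPM in the cultures, and differed from naive cells by 0.59 (SE 0.15, adjusted p = 0.00243) and 0.53 (SE 0.15, adjusted p = 0.00364), the latter, with LPS + IL-4, under 1.5-fold. The CD40L + IL-4 call of Bub3 was the 1 call of 44 that was lost in some fit with a library left out. Mad2l1, another checkpoint gene, was at 31.1 and 27.3 CPM, 99.8 and 117 CPM and 116 and 139 CPM, and Cenpa, the histone variant that marks centromeres, at 45.2 and 31.2 CPM, 128 and 134 CPM and 90.4 and 116 CPM. Mad2l1 rose by 1.89 (SE 0.14) and 2.13 (SE 0.14), and Cenpa by 1.78 (SE 0.18) and 1.43 (SE 0.18).

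Per length, the order of the members was compared on the log2 RPKM values that the authors deposited. In naive control cells Bub3 was highest (6.29 and 5.92), followed by Cdc25b (5.10 and 4.75) and Cenpa (5.10 and 4.55), whose libraries overlap, and then Mad2l1 (4.22 and 3.99) and Pttg1 (4.14 and 3.93), which also overlap. With CD40L + IL-4 the top was Ube2c, the ubiquitin-conjugating enzyme of the anaphase-promoting complex (7.71 and 7.69), then Top2a (7.75 and 6.89), which overlaps it, and Ccnb2 (6.74 and 7.01). Cenpe, a kinetochore motor, was lowest at 2.76 and 1.52. The LPS + IL-4 values were normalised separately by the authors and are not ranked against these.

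A short element that the list did not use was present in 28 of the 38 member promoters examined. Cell cycle genes of the late phases commonly carry a CHR element, read as TTTGAA and bound by complexes of the MuvB core with B-MYB and FOXM1 or with repressors, often near a CCAAT box, which NF-Y binds. RefSeq start sites (build GRCm38.p6) gave windows of 250 bases before to 50 after the start for 38 of the 45 members. TTTGAA, read on both strands, was present in 28 of the 38 and in 20.2% of 27025 genes with a window. CCAAT on either strand was present in 27 of the 38 and in 41.1% of all genes, and both together in 23 of the 38 and in 7.97% of all genes. GGAAGT, letters found within ETS binding sites, was present in 9 of the 38 and in 26.5% of all genes. The 28 members with TTTGAA had a median log2 change of 6.18 from naive to CD40L + IL-4, and the 10 without it 5.82. A match describes letters in a window and is not a bound site.

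The 100 bases before the start are given for 6 members with TTTGAA in that stretch, because these show the spacing of the element from the CCAAT box, and for 3 of the 10 members without it, Cdc25b, Mybl2 and Pttg1, because the genotype and culture results turn on them. The other members without it, Birc5, Bub1, Ccnb1, Cenpe, Mad2l1, Nuf2 and Nusap1, rose in both cultures, as did Mybl2. Sequences run 5′ to 3′ on the strand of the gene, and capitals mark TTTGAA or CCAAT on either strand (TTCAAA and ATTGG on the other strand). The stretches are chr10:69352913-69353012, minus strand, for Cdk1, chr4:118437344-118437443, minus, for Cdc20, chr19:37376282-37376381, plus, for Kif11, chr11:99024190-99024289, minus, for Top2a, chr15:102296193-102296292, plus, for Espl1, and chr2:164769829-164769928, plus, for Ube2c. Those of the others are chr2:131186848-131186947, plus, for Cdc25b, chr2:163054535-163054634, plus, for Mybl2, and chr11:43425982-43426081, minus, for Pttg1.
Cdk1: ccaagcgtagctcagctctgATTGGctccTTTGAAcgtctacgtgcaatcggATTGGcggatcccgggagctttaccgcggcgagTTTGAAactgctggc
Cdc20: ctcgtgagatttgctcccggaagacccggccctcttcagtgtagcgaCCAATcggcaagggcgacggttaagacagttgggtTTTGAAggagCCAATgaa
Kif11: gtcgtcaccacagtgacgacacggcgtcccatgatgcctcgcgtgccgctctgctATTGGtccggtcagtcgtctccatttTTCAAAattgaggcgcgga
Top2a: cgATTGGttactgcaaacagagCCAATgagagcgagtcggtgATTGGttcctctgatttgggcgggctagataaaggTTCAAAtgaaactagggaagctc
Espl1: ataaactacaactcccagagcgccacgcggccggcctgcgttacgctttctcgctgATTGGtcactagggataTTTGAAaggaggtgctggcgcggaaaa
Ube2c: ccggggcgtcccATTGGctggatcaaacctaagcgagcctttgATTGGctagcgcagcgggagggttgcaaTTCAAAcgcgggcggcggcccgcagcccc
Cdc25b: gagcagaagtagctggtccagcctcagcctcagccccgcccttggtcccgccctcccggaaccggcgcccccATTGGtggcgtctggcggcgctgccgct
Mybl2: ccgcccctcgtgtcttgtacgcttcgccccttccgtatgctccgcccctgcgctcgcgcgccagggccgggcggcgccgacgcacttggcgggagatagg
Pttg1: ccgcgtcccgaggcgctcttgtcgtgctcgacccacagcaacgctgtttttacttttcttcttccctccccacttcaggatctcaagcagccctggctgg
In Kif11 the element began 19 bases before the start and the CCAAT box 45, and in Espl1 they began 27 and 44 bases before it. Cdk1 held TTTGAA at 71 and 15 bases before the start. Cdc25b held a CCAAT box and no TTTGAA, and the stretches of Mybl2 and Pttg1 held neither. The start used lay inside the gene for Cdc25b (gene from chr2:131186436), Mybl2 (from chr2:163054327) and Pttg1 (minus strand, gene to chr11:43427463). Sequence before the outer end of these genes was not examined, so their lack of matches describes these windows only. The starts of Top2a (minus strand, gene to chr11:99024199) and Espl1 (gene from chr15:102296254) also lay inside the gene, but close to that outer end.

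The 2 cultures were then compared in control cells. With LPS + IL-4, 10 members were DE higher than with CD40L + IL-4 and 3 were lower, against 20.3% and 20.9% of all genes. Mybl2, encoding B-MYB, was at 61.9 and 47.4 CPM with CD40L + IL-4 and at 142 and 154 CPM with LPS + IL-4, a log2 difference of 1.44 (SE 0.19, adjusted p = 7.77e-06). Foxm1, which encodes the partner factor of B-MYB on late cell cycle genes, went the other way, with 109 and 89.2 CPM against 55.6 and 65.3 CPM (log2 difference -0.71, SE 0.16, adjusted p = 0.00122). Neither gene overlapped between the cultures. The kinetochore motor Cenpe was at 55.7 and 23.3 CPM with CD40L + IL-4 and 92.1 and 89.5 CPM with LPS + IL-4. Ccnb1 (0.76, SE 0.20), Cdk1 (0.59, SE 0.15), Aurka (0.65, SE 0.21), Bub1 (0.77, SE 0.20), Ttk (0.80, SE 0.15), Kif20b (0.79, SE 0.18), Kif15 (0.72, SE 0.18), Cenpe (1.19, SE 0.40) and Mki67 (1.09, SE 0.56) were the others higher with LPS + IL-4. Ccnb2 (-0.72, SE 0.27) and Cdc25b (-1.46, SE 0.17, adjusted p = 1.06e-06) were lower, so the cyclin B pair moved in opposite directions.

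Of these 13 calls, 4 held with each control library left out in turn, those of Bub1, Cdc25b, Mybl2 and Ttk. The count was 20 without CD40L + IL-4 replicate 1. The proliferation antigen gene Mki67 measured 380 and 120 CPM in the 2 CD40L + IL-4 control libraries, and its difference was 0.49 without replicate 2 (adjusted p = 0.582). The CD40L + IL-4 replicates differed with exon length. Over all genes with more than 8 kb of exon the median of replicate 1 minus replicate 2 in control was 0.42 on the log2 CPM scale, and under 1 kb it was -0.27. Its part in the culture difference was not tested.

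In naive cells, most members tested read lower in PU.1 cKO than in control, many of them from low counts. Kif23, for example, had 25 and 22 counts in the control libraries and 3 and 5 in the PU.1 cKO libraries. Of the 37 members tested in naive cells, 8 were DE lower in PU.1 cKO than in control and 1 was higher, against 6.55% and 4.18% of 12500 genes. The log2 change was below 0 for 34 of the 37, with a median of -0.69 against -0.01 for all genes. The 8 untested members (Cdc25c, Ttk, Kif2c, Kif4, Kif15, Cenpe, Cenpf and Anln) had too few counts. Kif23, a kinesin of the central spindle, was at 1.75 and 1.56 CPM in control and at 0.191 and 0.316 CPM in PU.1 cKO, and fell by 2.67 on the log2 scale (SE 0.53, adjusted p = 0.0182). Tpx2, which activates Aurora A on the spindle, was at 1.82 and 1.78 CPM against 0.382 and 0.505 CPM (-2.00, SE 0.46, adjusted p = 0.0332). Control and PU.1 cKO libraries did not overlap for either gene.

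Kif18b, a kinesin that shortens microtubule ends, had 15 counts in the naive control libraries and none in the PU.1 cKO libraries, which makes it at least 5.56-fold lower against a floor of 3 counts over the group (adjusted p = 0.0636). Ube2c was at 2.17 and 1.07 CPM in control and 0.127 and 0.505 CPM in PU.1 cKO (-2.33, SE 0.69, adjusted p = 0.0775). Mki67 was at 0.981 and 1.71 CPM against 0.446 and 0.253 CPM (-1.92, SE 0.72, adjusted p = 0.148). Again no PU.1 cKO library reached the lower control library. The checkpoint kinase relative Bub1b (-1.25, SE 0.29), Kif20b (-1.02, SE 0.33) and Cenpa (-0.65, SE 0.22) also fell. Top2a (5.25 and 5.83 CPM against 3.57 and 3.28 CPM), Ccna2 (3.43 and 3.06 CPM against 1.91 and 1.07 CPM) and Birc5 (1.19 and 0.711 CPM against 0.510 and 0.190 CPM) did not pass the test. The 1 rise was Cdc25b, from 101 and 81.5 CPM to 136 and 148 CPM (0.64, SE 0.12, adjusted p = 0.0150).

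**Figure D2:**
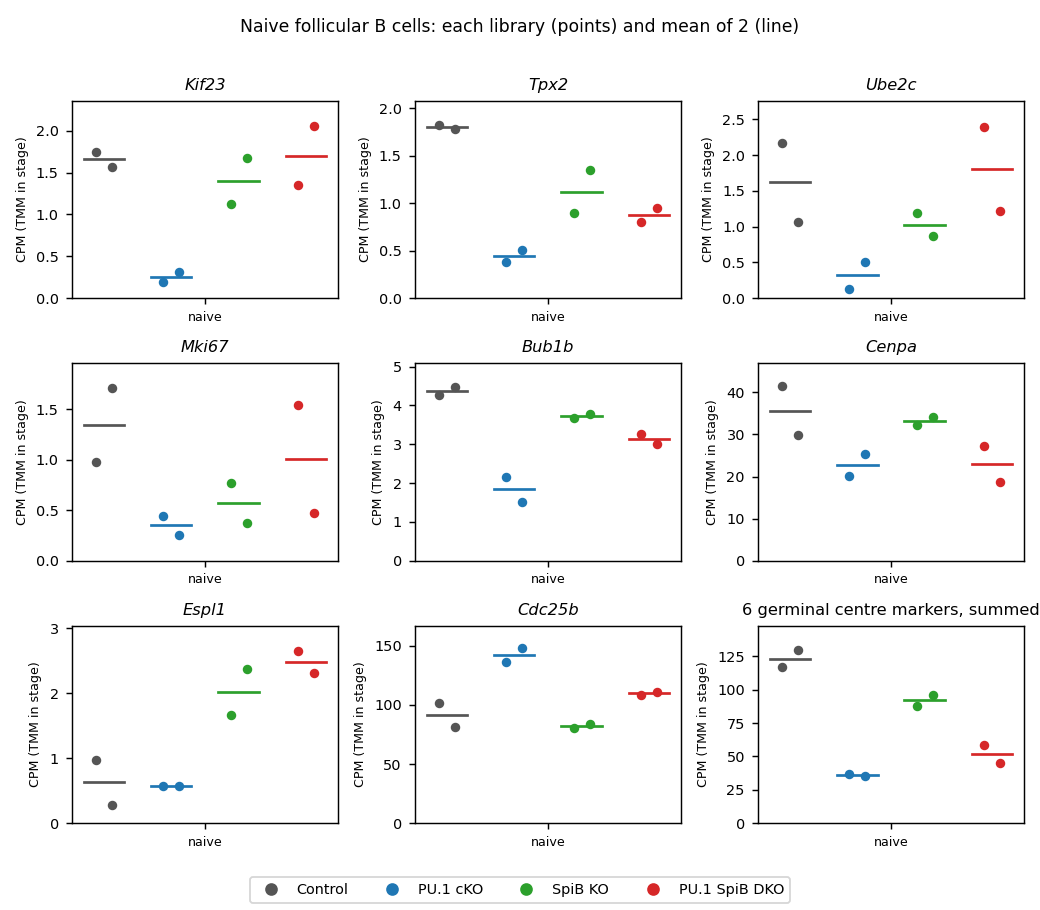
CPM in the 8 naive libraries for 8 members and for the sum of 6 germinal centre B cell markers, with points for libraries and a line for the mean of 2. PU.1 cKO points lie below control for Kif23, Tpx2, Ube2c, Mki67, Bub1b and Cenpa and for the germinal centre sum, and above control for Cdc25b.

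Markers of germinal centre B cells, which divide in vivo, were also lower in naive PU.1 cKO. Bcl6, S1pr2, Rgs13, Gcsam and Mybl1, 5 of 6 germinal centre markers, were DE lower there. The 6 summed to 117 to 130 CPM in control and 35.7 to 36.9 CPM in PU.1 cKO. Most of this sum was Bcl6, at 87.4 and 113 CPM in control and 27.9 and 27.4 CPM in PU.1 cKO. No germinal centre marker was at 0 in a naive library. Their part in the lower mitotic transcripts was not tested. The count of 9 DE members was 3 without PU.1 cKO replicate 1, 3 without PU.1 cKO replicate 2, and 6 without control replicate 2, and the fall of Kif23 was the 1 call kept in each of the 4 fits. The summed germinal centre level was 88.0 to 95.9 CPM in SpiB KO and 44.8 to 58.2 CPM in PU.1 SpiB DKO. A fit that blocked on the replicate number called 14 members.

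Naive SpiB KO cells had 2 members DE higher, 1 lower and a median log2 change of -0.14, against 6.01% and 3.62% of all genes. Espl1 was at 0.981 and 0.284 CPM in control and 1.67 and 2.37 CPM in SpiB KO (1.66, SE 0.51, adjusted p = 0.0998). Cdk1 was at 1.82 and 1.42 CPM against 3.03 and 3.24 CPM (0.95, SE 0.33, adjusted p = 0.135), and Kif20b at 2.73 and 3.70 CPM against 1.55 and 1.51 CPM (-1.07, SE 0.33, adjusted p = 0.101). These 3 genes did not overlap between the genotypes. Without SpiB KO replicate 1, without SpiB KO replicate 2 or without control replicate 2, no member was DE, and without control replicate 1 the count was 6.

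In naive PU.1 SpiB DKO, 2 members were DE higher and 4 lower than in control, against 12.6% and 8.64% of all genes, with a median log2 change of 0.14. Espl1 was at 2.64 and 2.32 CPM (1.95, SE 0.51, adjusted p = 0.0254). Aurkb, the kinase of the chromosomal passenger complex, was at 11.0 and 8.64 CPM against 5.60 and 5.90 CPM in control (0.77, SE 0.22, adjusted p = 0.0369). Both genes were higher in each PU.1 SpiB DKO library than in each control library. Mad2l1 fell from 28.6 and 26.1 CPM to 17.5 and 14.2 CPM (-0.79, SE 0.15, adjusted p = 0.00627). Kif20b (1.60 and 1.21 CPM, log2 change -1.19, SE 0.34, adjusted p = 0.0346) and Tpx2 (0.800 and 0.948 CPM, log2 change -1.03, SE 0.42, adjusted p = 0.113) were also lower. So was Cenpa (27.3 and 18.7 CPM, log2 change -0.64, SE 0.22, adjusted p = 0.0729). The calls of Espl1 and Mad2l1 held in each of the 4 fits with a library left out, and the counts of those fits ran from 4 to 9.

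Against PU.1 cKO, the double mutant was higher for 15 members and lower for none (9.91% and 3% of all genes were DE higher and lower), with a median log2 difference of 0.83. Kif18b, at 0 in PU.1 cKO and 18 counts in PU.1 SpiB DKO, was at least 5.37-fold higher. Kif23 was at 0.191 and 0.316 CPM in PU.1 cKO and 1.35 and 2.06 CPM in PU.1 SpiB DKO (2.72, SE 0.52, adjusted p = 0.00854). Birc5, encoding survivin, was at 0.510 and 0.190 CPM against 3.14 and 1.26 CPM (2.62, SE 0.74, adjusted p = 0.0539). None of these genes overlapped. The other 12 were Ube2c, Bub1, Espl1, Ccnb2, Cdca3, Plk1, Ccna2, Prc1, Ccnb1, Cdk1, Top2a and Bub1b, with differences from 0.76 to 2.47. Mad2l1 (-0.41, SE 0.15) and Cdc25b (-0.37, SE 0.12) were lower by under 1.5-fold.

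This contrast leaned on single libraries. The count was 2 without PU.1 SpiB DKO replicate 1, 2 without PU.1 cKO replicate 2 and 5 without PU.1 cKO replicate 1, and Kif23 alone was called in each of the 4 fits with a library left out. The voom fit called 3. Against SpiB KO, no member was DE in PU.1 SpiB DKO by edgeR's quasi-likelihood test (3.03% of all genes) or DESeq2, while voom called 1. An unadjusted p below 0.05 was found for 4 of the 37 members and for 1538 of 12500 genes. Mad2l1 was lower by 0.56 on the log2 scale (SE 0.15, adjusted p = 0.123), under 1.5-fold. The interaction of the 2 losses had no DE member by edgeR's quasi-likelihood test (0.936% of all genes). Its unadjusted p was below 0.05 for 14 of the 37 members and for 1416 of 12500 genes. The fit blocked on the replicate number called 6 members, DESeq2 called 2 and voom none. Some markers of other lineages were higher in naive cells without SpiB, in samples sorted as CD3- B220+ CD138-. The 9 T cell markers together ranged from 73.2 to 118 CPM in control libraries, from 384 to 464 CPM without SpiB and from 567 to 577 CPM without both factors, with 4 and 5 of the 8 tested DE higher. These were Cd4, Cd8a, Cd8b1 and Cd5 in both mutants and Lck in the double mutant, while Cd3d, Cd3g and Thy1 did not pass the test in either and Cd3e was not tested. Plasmacytoid dendritic cell markers, all 6 of them DE higher in both mutants, ranged from 279 to 365 CPM, 1130 to 1374 CPM and 1482 to 1567 CPM in the same order. For the 7 macrophage markers the ranges were 13.5 to 25.1 CPM, 51.4 to 63.9 CPM and 72.2 to 72.9 CPM, with 1 and 3 of the 5 tested DE higher. Most of the macrophage sum was Cd68, at 11.3 and 5.76 CPM in control and 49.1 and 36.8 CPM in SpiB KO, and Itgam and Csf1r did not pass in either mutant. Cd3e was at 0 in 1 naive library, Cd14 in 1 and Mertk in 7. Their part in these results was not tested.

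**Figure D3:**
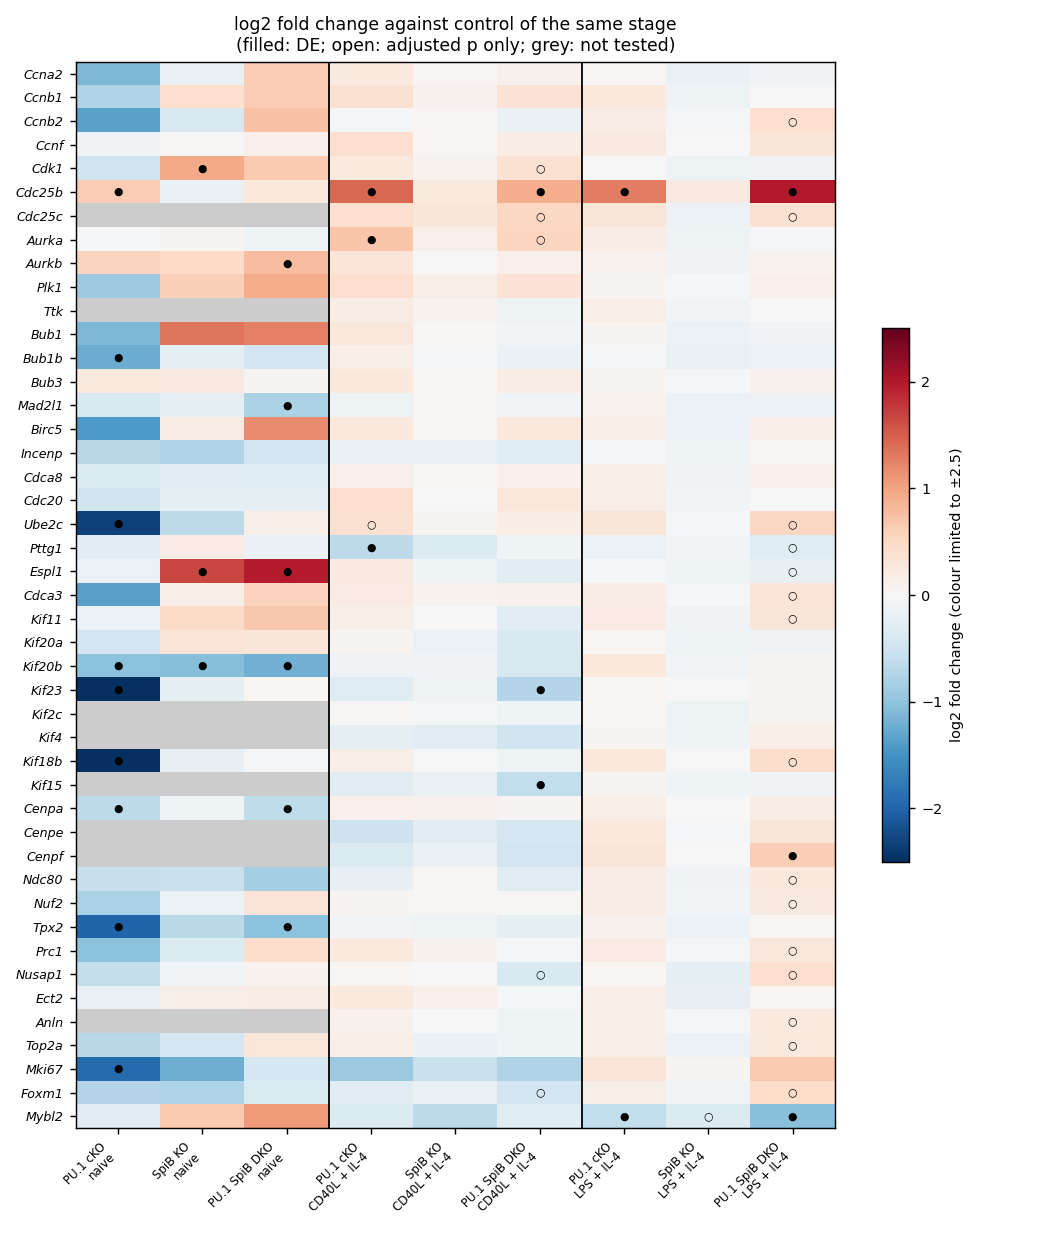
log2 fold change of each member against the control of the same stage, in 3 genotypes and 3 stages, with filled dots for DE calls, open dots for an adjusted p below 0.15 under 1.5-fold and grey for members not tested. Cdc25b is the 1 member called higher in PU.1 cKO at each of the 3 stages. Colours of the cultured cells are mostly pale.

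With CD40L + IL-4, few members differed from control at the threshold. PU.1 cKO had 2 members DE higher and 1 lower of 45, against 6.27% and 7.21% of 12721 genes. Cdc25b was at 143 and 107 CPM in control and 356 and 319 CPM in PU.1 cKO (1.43, SE 0.18, adjusted p = 0.000788). Aurka, the centrosomal Aurora kinase, was at 69.1 and 67.2 CPM against 105 and 114 CPM (0.69, SE 0.20, adjusted p = 0.0581). Pttg1 was at 10.1 and 11.5 CPM against 6.72 and 7.04 CPM (-0.65, SE 0.23, adjusted p = 0.116). For these 3 genes the genotypes did not overlap. The Cdc25b call held with any of the 4 libraries left out, with changes from 1.23 to 1.67. The count was 1 without control replicate 2 and 1 without PU.1 cKO replicate 2, the deepest library of that culture.

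SpiB KO had no DE member by edgeR's quasi-likelihood test (0.134% of all genes), by DESeq2 or by voom. The unadjusted p was below 0.05 for 1 member and for 459 of 12721 genes. Cdc25b was at 140 and 155 CPM there, against 143 and 107 CPM in control. In PU.1 SpiB DKO, Cdc25b was at 260 and 213 CPM (0.92, SE 0.18, adjusted p = 0.00765), above both control libraries. Kif23 was at 128 and 106 CPM in control and 69.2 and 70.7 CPM in PU.1 SpiB DKO (-0.74, SE 0.16, adjusted p = 0.0123), and Kif15, a second kinesin that separates spindle poles, at 98.8 and 64.0 CPM against 50.8 and 54.9 CPM (-0.62, SE 0.22, adjusted p = 0.0865). Neither gene overlapped. These were the DE members, 1 higher and 2 lower, against 9.13% and 9.2% of all genes. At any fold 4 were higher and 4 lower, adding Cdk1, Cdc25c and Aurka above and Foxm1 and Nusap1 below control, against 12.5% and 12.7% of all genes. The Kif15 change was -0.28 without control replicate 1 (adjusted p = 0.524), -0.57 without PU.1 SpiB DKO replicate 1 (adjusted p = 0.233) and -0.67 without its replicate 2 (adjusted p = 0.209), and the count was 8 without control replicate 2.

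Longer genes read lower in PU.1 SpiB DKO in this culture, members or not. The median log2 change of all tested genes was 0.32 under 1 kb of exon, 0.13 from 1 to 2 kb, -0.13 from 4 to 8 kb and -0.32 over 8 kb. Kif23 has 3.40 kb of exon and Kif15 4.86 kb. Across the 45 members the log2 change correlated with log2 exon length (Pearson r = -0.53, Spearman rho = -0.56, across genes that share libraries, as a description). With LPS + IL-4 the same medians ran from -0.05 to 0.08 and r was 0.05. PU.1 cKO against control showed a gradient too, with medians from 0.19 under 1 kb to -0.16 over 8 kb with CD40L + IL-4 (r = -0.40 across members). In naive PU.1 cKO they went from 0.12 to -0.20 (r = -0.05 across the 37 members tested), and with LPS + IL-4 from -0.04 to 0.02. The part of length in the falls of Kif23 and Kif15 and in the PU.1 cKO calls was not tested.

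**Figure D4:**
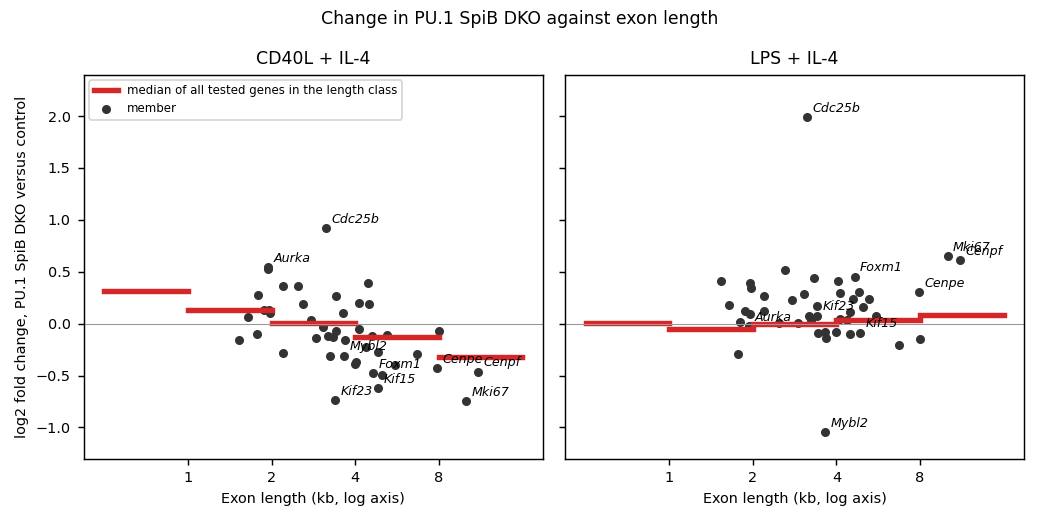
log2 fold change of PU.1 SpiB DKO against control for each member (points) against exon length in kb on a log axis, with the median of all tested genes in each length class (red bars), for CD40L + IL-4 on the left and LPS + IL-4 on the right. Red bars descend from 0.32 to -0.32 on the left and stay between -0.05 and 0.08 on the right.

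With the double mutant set beside PU.1 cKO in this culture, no member was DE by edgeR's quasi-likelihood test (4.06% of all genes), DESeq2 or voom. The unadjusted p was below 0.05 for 6 of the 45 members and for 1619 of 12721 genes. Against SpiB KO, Cdc25b was higher by 0.68 (SE 0.18, adjusted p = 0.0375) and Kif23 lower (-0.62, SE 0.16, adjusted p = 0.0341), against 8.18% and 7.11% of all genes, and neither was called without SpiB KO replicate 1 (adjusted p = 0.206 and 0.210). Without PU.1 SpiB DKO replicate 1 the Cdc25b difference was 0.54 (adjusted p = 0.173). The interaction had no DE member by edgeR's quasi-likelihood test (1.17% of all genes), DESeq2 or voom. Its unadjusted p was below 0.05 for 3 members and for 1010 of 12721 genes, and a fit blocked on the replicate number called 2 members. Plasma cell markers were higher in cells without PU.1 in this culture, although the cells were sorted as CD138-, 5 of 7 DE in PU.1 cKO and 6 of 7 in PU.1 SpiB DKO, with sums of 1624 to 1960 CPM in control, 2747 to 3103 CPM in PU.1 cKO and 3765 to 4008 CPM in PU.1 SpiB DKO. Tnfrsf17 was at 0 in 3 of the 8 libraries. The 7 B cell markers summed to 5296 to 6700 CPM in control and 3331 to 4287 CPM in PU.1 SpiB DKO, where 5 of the 7 were DE lower. The part of these markers in the changes of the members was not tested.

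With LPS + IL-4, Cdc25b and Mybl2 moved apart. Cdc25b libraries were at 39.8 and 50.3 CPM in control cells and at 52.0 and 53.8 CPM in those without SpiB. They were at 96.1 and 122 CPM in PU.1 cKO and at 185 and 174 CPM in the libraries labelled PU.1 SpiB DKO. Mybl2 ranked the other way, from 148 and 156 CPM in control to 120 and 121 CPM without SpiB, 105 and 93.7 CPM in PU.1 cKO and 73.5 and 73.9 CPM in the double mutant. No 2 genotypes overlapped for either gene. In PU.1 cKO, Cdc25b rose by 1.27 (SE 0.14, adjusted p = 0.000360) and Mybl2 fell by 0.61 on the log2 scale (SE 0.08, adjusted p = 0.00130), the 1 rise and the 1 fall, against 6.68% and 3.85% of 12445 genes. The Mybl2 change was -0.57 without control replicate 2 and -0.55 without PU.1 cKO replicate 2, under 1.5-fold with adjusted p of 0.00778 and 0.0222.

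SpiB KO had no DE member by edgeR's quasi-likelihood test (3.19% of all genes), DESeq2 or voom. The unadjusted p was below 0.05 for 2 members and for 1664 of 12445 genes. Mybl2 passed the adjusted p there at under 1.5-fold (-0.34, SE 0.08, adjusted p = 0.0787). In PU.1 SpiB DKO, Cdc25b rose by 1.99 (SE 0.14, adjusted p = 1.36e-05) and Mybl2 fell by 1.04 on the log2 scale (SE 0.08, adjusted p = 2.85e-05), and both calls held with each library left out. Cenpf, a large kinetochore protein, was at 80.8 and 85.6 CPM in control and 134 and 120 CPM in PU.1 SpiB DKO (0.61, SE 0.13, adjusted p = 0.00684), and was at 0.56 without control replicate 1 and 0.53 without PU.1 SpiB DKO replicate 1, under 1.5-fold. These are 2 members DE higher and 1 lower, against 13.7% and 6.52% of all genes. The count was 7 without control replicate 2. Mean Spib was 13.5 CPM in these libraries and 244 CPM in control (DE), whereas Spi1 did not pass the test.

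**Figure D5:**
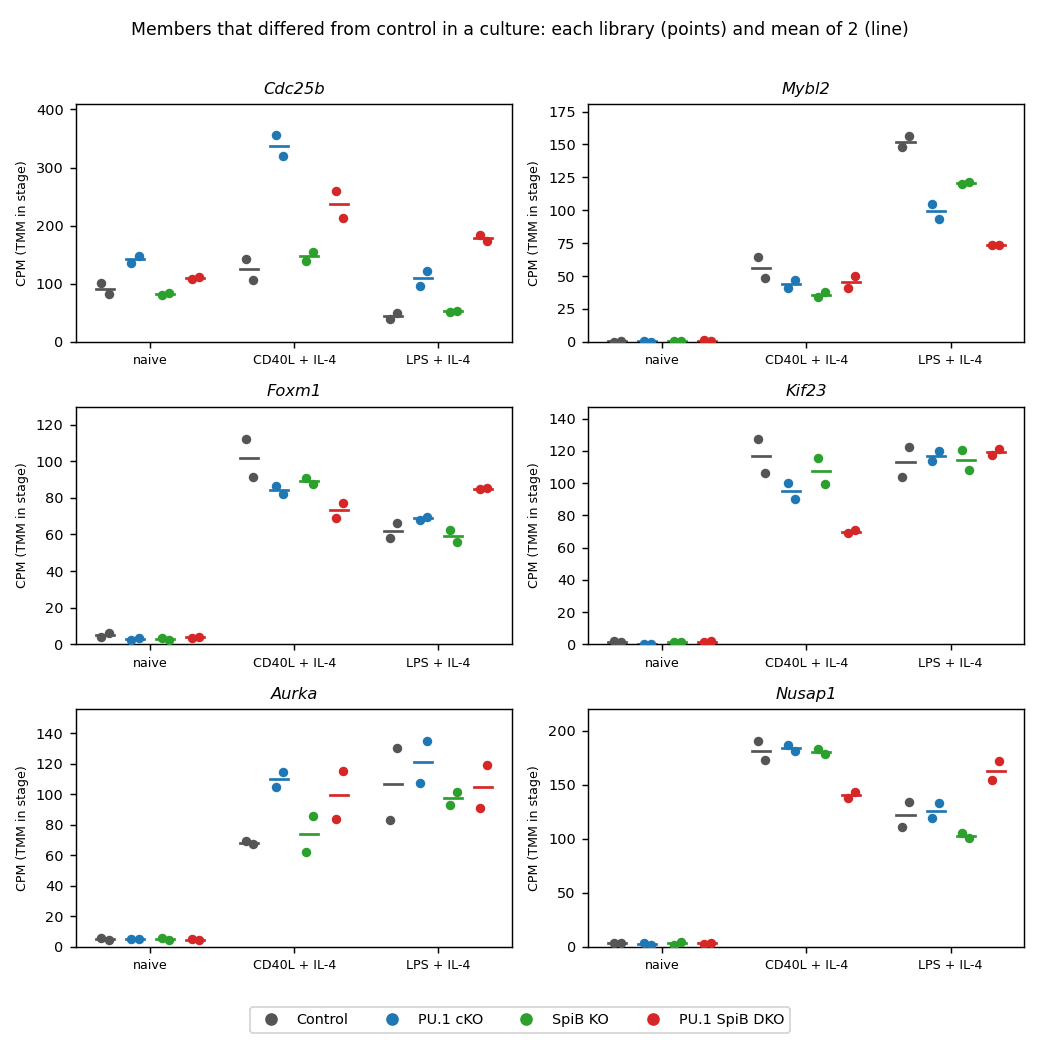
CPM of 6 members in all 24 libraries, normalised within each stage, with points for libraries and a line for the mean of 2. With LPS + IL-4, Cdc25b climbs from control to PU.1 SpiB DKO while Mybl2 descends, and Foxm1 and Nusap1 in PU.1 SpiB DKO lie below control with CD40L + IL-4 and above control with LPS + IL-4.

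In the LPS + IL-4 double mutant, more members passed the adjusted p alone than passed it together with the 1.5-fold threshold, as did more of all genes. At an adjusted p below 0.15 and any fold, 15 members were higher and 3 lower than in control, while 25.6% of all genes were higher and 22.4% lower. The rises of under 1.5-fold were those of Ccnb2 (0.42, SE 0.08), Cdc25c (0.39, SE 0.15), Ube2c (0.52, SE 0.18), Cdca3 (0.35, SE 0.09), Kif11 (0.30, SE 0.10), Kif18b (0.44, SE 0.12), Ndc80, Nuf2, Prc1, Nusap1 (0.41, SE 0.11), Anln, Top2a and Foxm1 (0.45, SE 0.09). The other falls were Pttg1 (-0.30, SE 0.12) and Espl1 (-0.21, SE 0.09), the securin and separase pair. Aurka, Aurkb, Plk1, Bub1, Bub3, Mad2l1, Birc5, Cdc20, Kif4, Cenpa, Ccnb1, Ccna2, Cdk1 and Mki67 did not pass. Mki67 illustrates the spread, with 650 and 449 CPM in control and 1119 and 603 CPM in PU.1 SpiB DKO.

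Over its level in PU.1 cKO, Cdc25b was higher in PU.1 SpiB DKO by 0.72 (SE 0.13, adjusted p = 0.00787), with 1 member DE higher and none lower, against 9.12% and 3.48% of all genes, and by 0.54, under 1.5-fold, without PU.1 cKO replicate 1. Mybl2 was lower (-0.43, SE 0.08, adjusted p = 0.00876), also under 1.5-fold. Against SpiB KO, Cdc25b (1.76, SE 0.14), Nusap1 (0.66, SE 0.11) and Cenpf (0.59, SE 0.13) were higher and Mybl2 (-0.71, SE 0.08) lower, against 8.64% and 4.12% of all genes. Nusap1, which bundles spindle microtubules, was at 105 and 101 CPM in SpiB KO, and the double mutant libraries had 154 and 172 CPM, without overlap. The count was 7 without SpiB KO replicate 1. The interaction had no DE member by edgeR's quasi-likelihood test (1.38% of all genes). Its unadjusted p was below 0.05 for 4 members and for 1380 of 12445 genes. DESeq2, voom and the fit blocked on the replicate number each called 1 member. Plasma cell markers moved here too, also in CD138- cells, 4 of the 6 tested DE higher in PU.1 cKO and 5 of 6 in PU.1 SpiB DKO, with sums of 1129 to 1235 CPM in control, 1817 to 2055 CPM in PU.1 cKO and 2538 to 2571 CPM in PU.1 SpiB DKO. Tnfrsf17 was at 0 in 3 of the 8 libraries, and the part of these markers was not tested. The comparisons with control share its libraries and are not independent of each other.

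The effect of the double loss was then compared between the cultures in 1 model. It differed for 6 members, 4 more positive with LPS + IL-4 and 2 more negative, against 11.0% and 11.5% of all genes. The cultures came in separate count tables, and culture cannot be told apart from any difference in preparation or sequencing between them. Cdc25b (0.98, SE 0.23, adjusted p = 0.00821), Foxm1 (0.84, SE 0.23, adjusted p = 0.0176), Kif23 (0.73, SE 0.20, adjusted p = 0.0196) and Cenpf (0.99, SE 0.42, adjusted p = 0.121) were more positive. Mybl2 (-0.82, SE 0.27, adjusted p = 0.0489) and Aurka (-0.66, SE 0.30, adjusted p = 0.148) were more negative. Foxm1 was at 112 and 91.2 CPM in control and 69.3 and 77.1 CPM in PU.1 SpiB DKO with CD40L + IL-4. With LPS + IL-4 it was at 58.0 and 66.1 CPM against 84.7 and 85.3 CPM, so the double mutant lay below control in the one culture and above it in the other. The differences of Cdc25b, Foxm1 and Kif23 held with each of the 8 libraries left out in turn. The count was 3 without PU.1 SpiB DKO CD40L + IL-4 replicate 2, 3 without control LPS + IL-4 replicate 2 and 11 without control CD40L + IL-4 replicate 2. For the effects of PU.1 loss (2.97% of all genes DE) and SpiB loss (0% of all genes), no member differed between the cultures by edgeR's quasi-likelihood test, DESeq2 or voom. No member had an unadjusted p below 0.05, against 1684 of 13684 genes for PU.1 loss and 421 for SpiB loss. A fit blocked on the replicate number called 2 for PU.1 loss.

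Other genes of the same machinery were counted from lists drawn up beside the members. Of 70 further spindle and kinetochore genes, 62 were tested in naive cells, where 5 were DE higher and 3 lower in PU.1 SpiB DKO, against 12.6% and 8.64% of all genes. The largest changes were those of Cit, a kinase of cytokinesis (1.52 against 0.495 CPM, log2 change 1.61, SE 0.47, adjusted p = 0.0418), and Numa1, which focuses spindle poles (41.5 against 110 CPM, log2 change -1.40, SE 0.37, adjusted p = 0.0276). With CD40L + IL-4, 1 of the 70 was higher and 5 lower, against 9.13% and 9.2% of all genes, led by Cit (26.3 against 53.2 CPM, log2 change -1.02, SE 0.40, adjusted p = 0.121) and Numa1 (95.2 against 181 CPM, log2 change -0.93, SE 0.38, adjusted p = 0.139). With LPS + IL-4, 4 were higher and none lower, against 13.7% and 6.52% of all genes, led by Depdc1b (24.5 against 13.6 CPM, log2 change 0.83, SE 0.19, adjusted p = 0.00801) and Cit (52.9 against 34.3 CPM, log2 change 0.63, SE 0.13, adjusted p = 0.00512). Cit in PU.1 SpiB DKO was thus above control in naive cells and with LPS + IL-4 and below it with CD40L + IL-4, where its libraries overlapped. At each stage these counts are smaller shares of the list than of all genes.

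Of 18 condensin and cohesin genes, PU.1 SpiB DKO had 2 higher and 3 lower in naive cells (12.6% and 8.64% of all genes), among them the cohesin acetyltransferase Esco2 (1.30 against 0.460 CPM, log2 change 1.48, SE 0.61, adjusted p = 0.118) and the condensin subunit Ncapd3 (12.1 against 6.32 CPM, log2 change 0.93, SE 0.19, adjusted p = 0.00850). With CD40L + IL-4 1 was lower (9.2% of all genes), the cohesin subunit Smc1a (log2 change -0.64, SE 0.27, adjusted p = 0.144). With LPS + IL-4 none was DE by edgeR, 6 had an unadjusted p below 0.05 (5437 of 12445 genes) and 6 were higher at any fold (25.6% of all genes). Of 17 subunits of the anaphase-promoting complex, none was DE in PU.1 SpiB DKO at any stage by edgeR's quasi-likelihood test, with 3, 0 and 2 at an unadjusted p below 0.05, against 4268 of 12500, 3578 of 12721 and 5437 of 12445 genes. Of 12 subunits of the DREAM and MuvB complexes, 1 was DE at each stage, near or below the shares of all genes given above. These were Tfdp1, the E2F partner, in naive cells (log2 change 1.17, SE 0.22, adjusted p = 0.00601), Mybl1 with CD40L + IL-4 (2.48 against 5.62 CPM, log2 change -1.20, SE 0.40, adjusted p = 0.0743) and E2f5 with LPS + IL-4 (9.75 against 20.8 CPM, log2 change -1.10, SE 0.12, adjusted p = 0.000187). Of 25 DNA replication genes, 24 were tested in naive cells, with 1 DE higher and 2 lower (12.6% and 8.64% of all genes). With CD40L + IL-4 2 were lower (9.2% of all genes). With LPS + IL-4 none was DE by edgeR, while 15 had an unadjusted p below 0.05 (5437 of 12445 genes) and 16 were lower at any fold (22.4% of all genes).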

How the data were processed

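Per the study's methods, the authors aligned reads of mRNA libraries to the GRCm38/mm10 mouse genome with Subread and, from reads mapping to 1 place, made gene-level counts with featureCounts over RefSeq exons (build 38.1). Versions are not given in the sources used here. The deposited counts are raw whole numbers for 24 libraries, in 1 table of CD40L + IL-4 samples and 1 of naive and LPS + IL-4 samples. The deposited log2 RPKM values were made by the authors in 2 separate normalisations (naive with CD40L + IL-4 samples, and LPS + IL-4 samples) and were used only to order genes per length within the first. Of the genes, 517 had an Entrez ID without a symbol (0.162% of counts) and were kept. Genes with near-identical copies lose reads under unique mapping, and strand was not stated, so overlapping genes cannot be told apart.

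Counts were fitted with edgeR 4.0.16 (limma 3.58.1, R 4.3.3): TMM scaling, glmQLFit and glmQLFTest, 1 model per stage (8 libraries), and 1 model of 24 libraries for comparisons between stages. DESeq2 1.42.0 and voom were alternatives. CPM values are scaled by TMM. Exon lengths are unions of exons in GENCODE vM21 (basic set), found for 97.8% of tested genes. The counts were made over RefSeq exons, so the length given for a single gene can differ from the length counted. In differences between replicates, 0.5 CPM was added before log2. The pipeline was tested on simulated data with 200 genes changed by 1 on the log2 scale: 146, 127 and 153 were recovered in the naive, CD40L + IL-4 and LPS + IL-4 models and 127 in the 24-library model, with 26, 36, 22 and 16 false calls.

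Replicate numbers come from the titles. Deviations of same-numbered libraries correlated at 0.139 to 0.327 over genotype pairs in naive cells and 0.409 to 0.573 with LPS + IL-4, which met the criterion for pairing (every correlation over 0.1). With CD40L + IL-4 the range was -0.060 to 0.352 and did not. The models reported carry no replicate block, and the blocked fit is an alternative. All 12 replicate pairs differed by more than sampling noise. Bounds against a count of 0 use a floor of 3 counts and cover counting error only.

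The members and gene lists were chosen with earlier results of these data known. Values in every library were given for a set of 21 members where described and for the 3 largest rises and falls among DE members, and 2 genes per other list were named by the size of the change in PU.1 SpiB DKO. Library preparation notes in the labels describe the CD40L culture for all samples, so stages were taken from titles and cell type labels. For 1 gene of the B cell list and 1 of the germinal centre list, values are not reported here, and list sums and counts leave them out.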

Additional observations from a re-analysis of the deposited data

Results flagged for a closer look

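Results are listed here because the effect of the double loss of PU.1 and SpiB differed between the 2 cultures by the interaction test of the 24-library model (LPS + IL-4 effect minus CD40L + IL-4 effect, log2 scale, adjusted p below 0.15). Mybl2 (-0.82, adjusted p = 0.0489), Aurka (-0.66, adjusted p = 0.148) and Cdk1 (-0.57, adjusted p = 0.0802) had a more negative effect with LPS + IL-4. Kif23 (0.73, adjusted p = 0.0196), Foxm1 (0.84, adjusted p = 0.0176), Cdc25b (0.98, adjusted p = 0.00821) and Cenpf (0.99, adjusted p = 0.121) had a more positive one. The Cdk1 difference is under 1.5-fold. In PU.1 SpiB DKO with CD40L + IL-4 the change of all tested genes varied with exon length, as given in the report, and the part of length in these differences was not tested.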

How the results depend on the processing

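Of the 45 members, 38 stayed under 10 CPM in each naive library. The values below are counts of DE members. Without the 1.5-fold threshold they were 8 (3 with it) for PU.1 SpiB DKO against control with CD40L + IL-4, 18 (3) for it with LPS + IL-4, 7 (1) against PU.1 cKO and 18 (4) against SpiB KO with LPS + IL-4, 1 (0) for SpiB KO with LPS + IL-4, 1 (0) for naive PU.1 SpiB DKO against SpiB KO and 29 (13) between the control cultures. At an adjusted p below 0.05 they were 4 (9) for naive PU.1 cKO, 0 (3) for naive SpiB KO, 5 (15) for the naive double mutant over PU.1 cKO and 1 (3) for PU.1 cKO with CD40L + IL-4. With no filter on low counts they were 16 (9) for naive PU.1 cKO, 5 (3) for naive SpiB KO, 1 (0) for naive PU.1 SpiB DKO against SpiB KO, 11 (0), 1 (0) and 1 (0) for the naive, CD40L + IL-4 and LPS + IL-4 interactions, 1 (0) for SpiB KO with CD40L + IL-4, and 3 (0) and 10 (6) for the effects of PU.1 loss and double loss between cultures. DESeq2 called 2 (0) for the naive and 1 (0) for the LPS + IL-4 interaction. Voom called 3 (15) for the naive double mutant over PU.1 cKO, 1 (0) against SpiB KO and 1 (0) for the LPS + IL-4 interaction. With the replicate number as a block they were 14 (9) for naive PU.1 cKO, 6 (0), 2 (0) and 1 (0) for the naive, CD40L + IL-4 and LPS + IL-4 interactions and 2 (0) for the effect of PU.1 loss between cultures, and the block moved no other count by over 1.5 times. The cause of these moves was not tested, except that the settings without a threshold or filter admit more genes by construction. DESeq2 size factors in edgeR, only the 6 control libraries and only the 16 activated libraries moved no count by over 1.5 times. No named change reversed.

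With a library left out, the counts ran from 3 to 9 for naive PU.1 cKO, 0 to 6 for SpiB KO, 4 to 9 for PU.1 SpiB DKO, 2 to 16 for it against PU.1 cKO, 0 to 0 against SpiB KO and 0 to 3 for the interaction. With CD40L + IL-4 they ran from 1 to 2, 0 to 0, 2 to 8, 0 to 0, 0 to 3 and 0 to 0 in that order, and with LPS + IL-4 from 1 to 2, 0 to 0, 3 to 7, 0 to 1, 3 to 7 and 0 to 1. In control they ran from 43 to 44 (CD40L + IL-4 against naive), 44 to 45 (LPS + IL-4 against naive) and 11 to 20 (between cultures), and for the effects between cultures 0 to 0 (PU.1 loss), 0 to 0 (SpiB loss) and 3 to 11 (double loss). Where 1 library is left its group is assumed to vary like the others.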
